A study of Glycine max with 12 samples.

Results

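Nodulin genes other than the leghaemoglobins were followed through every root library of the series, as 10 soybean genes annotated with the term nodulation. They were taken by identifier from the deposited table of 49128 genes. The list was selected on measured values, the large differences of these genes between control+OP and control roots. Annotation alone does not pick them out, since 26 genes carry the term nodulation and 12 of these are neither listed here nor oxygen carriers. The study sequenced RNA from roots of the soybean cultivar Williams 82 in 4 groups of 3 libraries. Cd+OP roots had cadmium (Cd) and OP, control+OP roots had OP without Cd, Cd roots had the metal alone, and control roots had neither, per the treatment labels. OP is read from the series title as Oceanobacillus picturae, a bacterium, and the study is about Cd stress and seedling growth. A Cd dose of 70 mg/L stands on every library, controls included, and no label says which roots received it. The labels do not state plant age, exposure time, how OP was given, or whether each library stands for a separate plant, and they mention no rhizobia.

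Nodulins are plant proteins made in root nodules, the organs in which legumes house nitrogen-fixing bacteria called rhizobia. Inside a nodule cell the bacteria are enclosed by a membrane of plant origin, the peribacteroid membrane, with the peribacteroid fluid between it and the bacterium. Proteins of that membrane pass metals, ammonia and water between the partners.

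The 10 genes lie on 8 chromosomes, 7 on the minus strand and 3 on the plus strand, and no other gene of the table overlaps any of them. Positions below were copied from the deposited table, and the sources used here name no genome build for them. In the table's annotation 6 of them belong to the peribacteroid membrane, of 9 genes in all with a peribacteroid term, and 2 of the 6 also belong to the peribacteroid fluid. GLYMA_20G024200 and GLYMA_13G364400 have nodulation as their single term. GLYMA_05G121600 is annotated as an iron and manganese transporter and GLYMA_06G216500 as an integral membrane protein. GMN16 (GLYMA_02G265200) is the only one with a symbol.

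Libraries held 49904227 to 57693211 counts each and 42224 to 43313 genes above 0. Root markers were checked by annotation term. Genes with a root hair term reached 1 FPKM (a fragment count scaled for gene length and library depth) in 7 of 10 cases in every group, and no gene had a root cap term. The 6 genes with a lateral root term summed to 58.9 to 66.6 FPKM in Cd+OP, 79.6 to 82.3 in control+OP, 57.3 to 60.9 in Cd and 56.0 to 61.7 in control libraries, so this list was highest in the group in which the nodulins were high. Casparian strip genes, which mark the root endodermis, reached 1 FPKM in 11 to 12 of 12 cases in Cd+OP, 9 to 10 in control+OP, 1 in Cd and 11 to 12 in control libraries. Their summed level was 126 to 133 FPKM in Cd+OP, 131 to 139 in control+OP, 98.1 to 101 in Cd and 128 to 134 in control libraries, and in Cd libraries nearly all of that sum came from GLYMA_12G210400. Photosystem genes summed to 168 to 174 FPKM in Cd+OP, 204 to 208 in control+OP, 128 to 130 in Cd and 281 to 302 in control libraries. The 9 ribulose-bisphosphate carboxylase genes, also a green tissue marker, had their lowest sum in control+OP, with 86.7 to 89.97 FPKM in Cd+OP, 69.5 to 72.8 in control+OP, 108 to 117 in Cd and 151 to 164 in control libraries. Of the 103 genes with a nutrient reservoir term, 36 to 51 reached 1 FPKM per library. These 103 genes summed to 1087 to 1098 FPKM in Cd+OP, 1183 to 1220 in control+OP, 414 to 435 in Cd and 875 to 940 in control libraries. The sum of the 10 genes with a leghaemoglobin or oxygen carrier term, listed as a nodule marker, was highest in control libraries, at 797 to 878 FPKM. Most of it came from GLYMA_11G121800, an oxygen carrier gene without the term nodulation, which averaged 647 FPKM in control roots. The 4 leghaemoglobin genes with that term had another order, with means of 33.3 to 121 FPKM in control+OP and 0.164 to 1.40 in control roots. All 10 genes of this list summed to 434 to 454 FPKM in Cd+OP, 499 to 536 in control+OP and 400 to 406 in Cd libraries. The part that these differences play in the nodulin levels was not tested.

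All 10 genes were far higher in the 3 control+OP libraries than in any other library, and Cd+OP roots did not share that level. Summed over the 10 genes, the level was 19.6 to 21.8 FPKM in Cd+OP, 938 to 966 in control+OP, 3.36 to 13.5 in Cd and 5.11 to 11.1 in control libraries. The control+OP sum was 0.207 to 0.211% of all FPKM, against 0.000732 to 0.00477% in the other 9 libraries. Because the genes were listed for this difference, it is given as a description with no test. All 10 passed the filter of a mean of 1 FPKM over the 12 libraries. Over the 9 libraries outside control+OP, 8 of them averaged 1.03 to 1.88 FPKM, whereas GLYMA_14G052400 at 0.515 and GLYMA_08G120100 at 0.404 FPKM passed only through control+OP. In whole-root RNA a smaller number of cells of one type and less RNA in each such cell cannot be told apart.

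**Figure D1:**
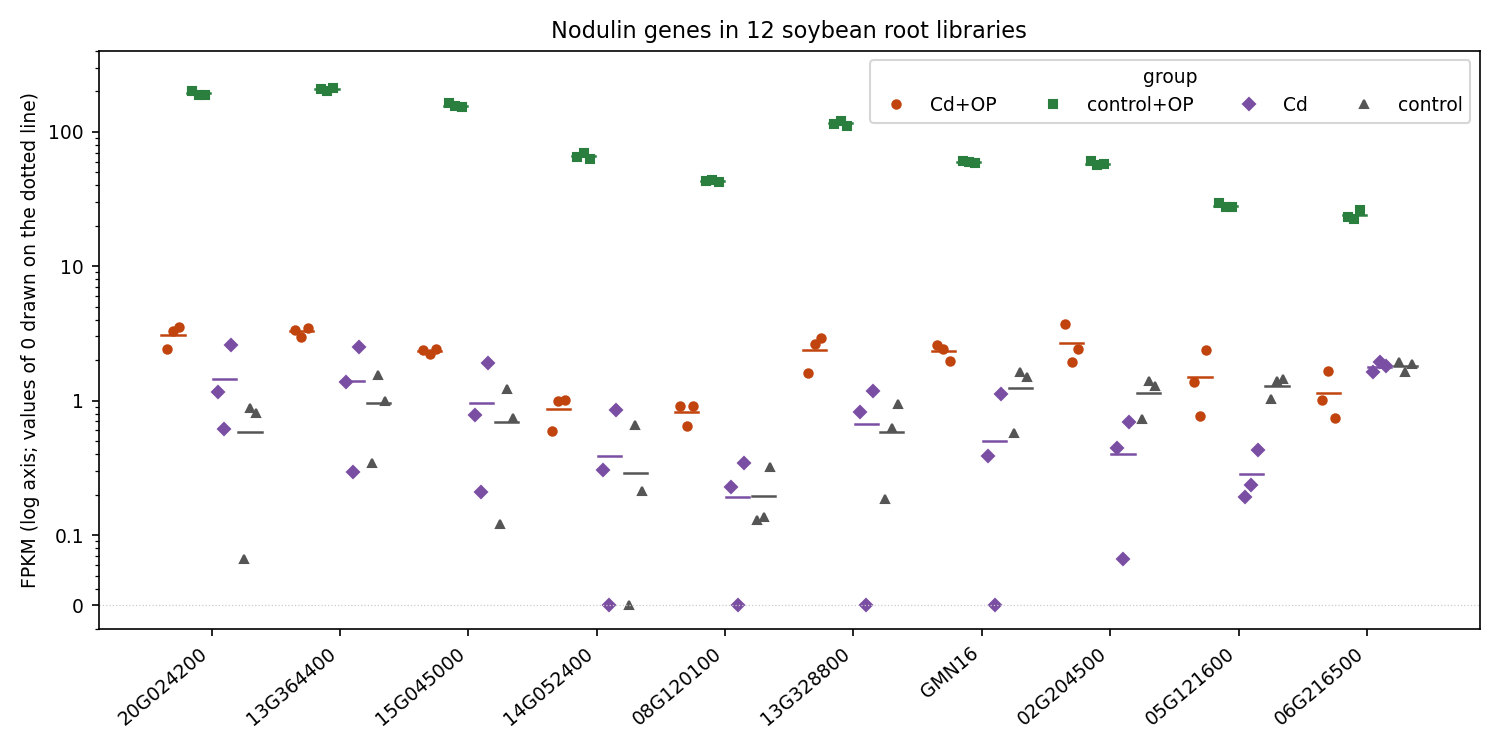
FPKM (log axis, with values of 0 drawn on the dotted line) of the 10 nodulin genes in the 12 libraries, with 1 point per library and a short line at each group mean. The control+OP libraries sit between 22.6 and 212 FPKM, and the libraries of the other groups between 0 and 3.74 FPKM.

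Cd+OP against Cd is the comparison whose group means leave out control+OP and control. It asks whether OP went with a different nodulin level when Cd was present. The filter, the scaling and the estimate of spread still used all 12 libraries, so the test is not free of control+OP. Of the 10 genes, 8 were higher in Cd+OP, 1 was lower and 1 did not pass the test (edgeR quasi-likelihood test, adjusted p under 0.05 over 30340 genes). GLYMA_08G120100 (called higher) and GLYMA_14G052400 (not called) entered the test only through control+OP, which also served to list the genes. The counts below include both. Among all genes tested, 36.4% were called higher and 34.6% lower, so a called difference is common in this comparison. The median log2 fold change of the 10 genes was 1.49, beside 0.00 over all genes tested. In 7 of the 10 genes every Cd+OP library lay above every Cd library, as did 41.1% of all genes tested. No gene of the 10 had every Cd+OP library below every Cd library, against 31.8% of all genes tested, and the other 3 overlapped. Set beside control, Cd+OP was higher without overlap in 7 of the 10 genes (37.4% of all genes tested) and lower without overlap in none (26.5%). The genes were listed partly on these control libraries, so this is a description and gives no separate support. The call depends on the tool: DESeq2, which gave larger standard errors for 9 of the genes, called 4 of the 10 higher, GLYMA_02G204500, GLYMA_05G121600, GMN16 and GLYMA_08G120100.

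GLYMA_20G024200 (chromosome 20, 2636776 to 2638588) was measured at 2.41, 3.28 and 3.52 FPKM in Cd+OP, 201, 189 and 188 in control+OP, 1.15, 0.615 and 2.60 in Cd, and 0.0666, 0.875 and 0.812 in control libraries. Control+OP stood apart from all other groups, and the lowest Cd+OP library lay below the highest Cd library. Its log2 fold change in Cd+OP against Cd was 1.0 ± 0.293 (SE; edgeR adjusted p = 0.0038). DESeq2 gave an adjusted p of 0.219 and limma on log2(FPKM + 0.1) gave 0.0618. Without Cd library 2 the log2 value was 0.63, and without Cd library 3 it was 1.70.

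GLYMA_13G364400 (chromosome 13, 45076184 to 45078228) was the most abundant of the 10 per length in control+OP, where its mean level ranked 171 of 49128 genes. It had 3.37, 3.0 and 3.46 FPKM in Cd+OP, 206, 201 and 212 in control+OP, 1.38, 0.294 and 2.53 in Cd, and 0.344, 1.55 and 1.0 in control libraries. The Cd+OP libraries were close to each other and all above the Cd libraries, which spread widely. The log2 fold change in Cd+OP against Cd was 1.15 ± 0.309 (edgeR adjusted p = 0.00193; DESeq2 0.124). It was 0.66 without Cd library 2 and 1.87 without Cd library 3.

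Of the 6 peribacteroid membrane genes, GLYMA_15G045000 (chromosome 15, 3603477 to 3604915) and GLYMA_13G328800 (chromosome 13, 42339731 to 42341204) are also annotated to the peribacteroid fluid. GLYMA_15G045000 had 2.40, 2.21 and 2.44 FPKM in Cd+OP, 163, 154 and 152 in control+OP, 0.779, 0.211 and 1.89 in Cd, and 0.122, 1.22 and 0.741 in control libraries. Cd+OP lay above Cd and above control in every library, by little in the case of Cd library 3. GLYMA_13G328800 averaged 2.39 ± 0.698 FPKM in Cd+OP, 115 ± 4.82 in control+OP, 0.668 ± 0.608 in Cd and 0.588 ± 0.383 in control roots (SD, n = 3 each), with Cd library 2 at 0. The log2 fold changes in Cd+OP against Cd were 1.22 ± 0.356 and 1.76 ± 0.393 for these genes in turn (edgeR adjusted p = 0.00385 and 0.00033). DESeq2 called neither, with adjusted p of 0.165 and 0.13. Without Cd library 2 they were 0.73 and 1.16, and without Cd library 3 they were 2.14 and 2.43.

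GLYMA_14G052400 (chromosome 14, 4133286 to 4135046), with 13 transcripts in the table, was the gene that did not pass the test. Its levels were 0.60, 0.992 and 1.01 FPKM in Cd+OP, 65.2, 69.4 and 62.4 in control+OP, 0.307, 0 and 0.858 in Cd, and 0, 0.656 and 0.211 in control libraries. The Cd+OP and Cd libraries overlapped. This gene passed the filter only through control+OP, with a mean of 0.515 FPKM over the other libraries. The log2 fold change was 1.11 ± 0.540 (edgeR adjusted p = 0.0707). Leaving out Cd library 3 gave 2.32 (adjusted p = 0.00298) and leaving out Cd library 2 gave 0.51 (adjusted p = 0.324). Leaving out Cd+OP library 1, control library 1 or control library 2 also brought the adjusted p under the threshold, to 0.0442, 0.0376 and 0.0427 in that order, and limma on log2(FPKM + 1) gave 0.0456.

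GLYMA_08G120100 (chromosome 8, 9255018 to 9258625) is annotated with channel activity in the peribacteroid membrane. It was measured at 0.915, 0.651 and 0.907 FPKM in Cd+OP, 43.1, 43.5 and 42.4 in control+OP, 0.228, 0 and 0.345 in Cd, and 0.131, 0.136 and 0.324 in control libraries. Its control+OP values were the tightest of the 10, with a coefficient of variation of 1.30%, and its Cd and control libraries overlapped. In Cd+OP against Cd it was higher by 2.02 ± 0.357 on the log2 scale (edgeR adjusted p = 2.08e-05; DESeq2 0.0457), with no overlap between libraries. The value was 1.42 without Cd library 2 and 2.72 without Cd library 3. Since the gene passed the filter only through control+OP (0.404 FPKM over the other libraries), its call in Cd+OP against Cd gives no separate support.

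GMN16 (chromosome 2, 45023283 to 45024372) had 2.57, 2.44 and 1.97 FPKM in Cd+OP, 60.1, 59.3 and 58.1 in control+OP, 0.388, 0 and 1.13 in Cd, and 0.576, 1.63 and 1.49 in control libraries. Cd+OP exceeded both Cd and control without overlap, and here Cd had the lowest mean. The log2 fold change in Cd+OP against Cd was 2.10 ± 0.415 (edgeR adjusted p = 8.05e-05; DESeq2 0.0313). It was 1.51 without Cd library 2 and 3.40 without Cd library 3.

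GLYMA_02G204500 (chromosome 2, 38980978 to 38982630) is annotated with electron transfer activity and as anchored to the plasma membrane, besides the peribacteroid membrane. It had 3.74, 1.93 and 2.41 FPKM in Cd+OP, 60.5, 56.2 and 57.1 in control+OP, 0.444, 0.0665 and 0.699 in Cd, and 0.726, 1.40 and 1.29 in control libraries. All 4 groups were apart from their neighbours in the order of levels, which no other gene of the 10 showed. Its log2 fold change in Cd+OP against Cd was the largest of the 10 in the edgeR fit, 2.65 ± 0.326 (edgeR adjusted p = 9.09e-08; DESeq2 1.44e-05), and it was 3.28 without Cd library 3.

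GLYMA_05G121600 (chromosome 5, 31433121 to 31434056) has terms for iron and manganese transport across membranes and for the sequestering of iron inside cells. Its levels were 1.37, 0.770 and 2.37 FPKM in Cd+OP, 29.5, 27.5 and 27.4 in control+OP, 0.194, 0.237 and 0.431 in Cd, and 1.03, 1.39 and 1.46 in control libraries. Cd libraries were the lowest and stood apart from control libraries, while Cd+OP and control libraries overlapped. The log2 fold change in Cd+OP against Cd was 2.26 ± 0.336 (edgeR adjusted p = 1.76e-06; DESeq2 2.89e-07).

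GLYMA_06G216500 (chromosome 6, 22665066 to 22667317) differed from the other 9 in the order of its group means, with Cd+OP the lowest. It had 1.02, 1.67 and 0.741 FPKM in Cd+OP, 23.3, 22.6 and 26.3 in control+OP, 1.63, 1.93 and 1.81 in Cd, and 1.93, 1.64 and 1.86 in control libraries. Cd and control libraries overlapped, with 1 Cd+OP library inside the range of the Cd libraries. It was the gene called lower in Cd+OP against Cd, at -0.71 ± 0.198 on the log2 scale (edgeR adjusted p = 0.00251; DESeq2 2.96e-04). Without Cd+OP library 2 the value was -1.09.

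**Figure D2:**
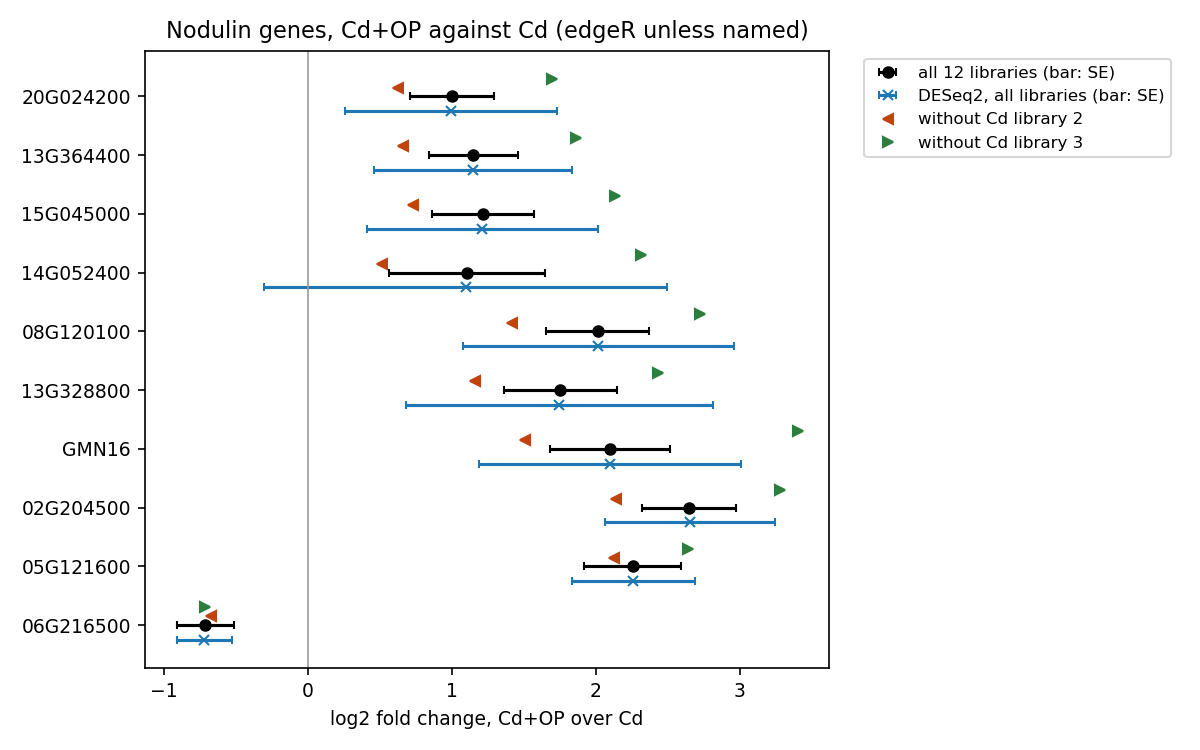
Log2 fold change of each nodulin gene in Cd+OP over Cd from edgeR (circles) and DESeq2 (crosses) with SE bars, and the edgeR value without Cd library 2 or without Cd library 3 (triangles, no bar). Leaving out library 2 moves GLYMA_20G024200 to 0.63 and leaving out library 3 moves it to 1.70, and the same order of the triangles holds for 8 of the other genes, while GLYMA_06G216500 stays below 0.

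Cd library 2 and Cd library 3 differed in the same direction in nearly all of these genes. Cd library 2 was the lowest of its group in 8 of 10 genes and held 4 genes at 0, whereas Cd library 3 was the highest in 9 of 10. In the control group, library 1 was the lowest in 9 of 10 genes and held 1 gene at 0. The 4 leghaemoglobin genes with the term nodulation went the same way, with Cd library 2 lowest in 3, Cd library 3 highest in 4 and control library 1 lowest in 4. Among the Cd+OP libraries none was the lowest in more than 5 genes or the highest in more than 6. Why these libraries differ was not tested.

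**Figure D3:**
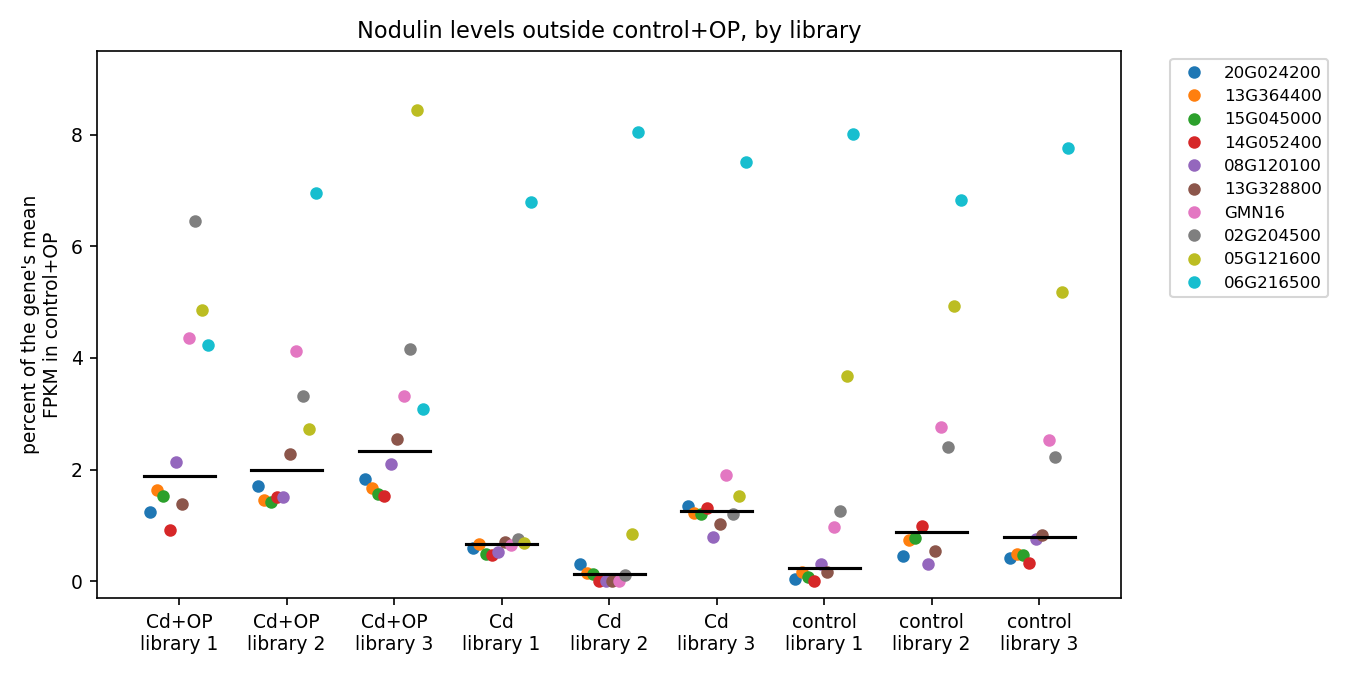
Level of each nodulin gene in the 9 libraries outside control+OP, as a percent of that gene's mean FPKM in control+OP, with 1 point per gene and a line at the median of the 10 genes. The medians are 1.88, 1.99 and 2.33% in Cd+OP, 0.662, 0.125 and 1.27% in Cd, and 0.235, 0.890 and 0.788% in control libraries.

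Relative to control+OP, the genes differed in level. In group means, GLYMA_20G024200, GLYMA_13G364400, GLYMA_15G045000, GLYMA_14G052400, GLYMA_08G120100 and GLYMA_13G328800 were at 1.32 to 2.07% of their control+OP level in Cd+OP, 0.445 to 0.756% in Cd and 0.303 to 0.510% in control roots. Their order was not the same in each group, since GLYMA_20G024200 was the highest of the 6 in Cd and the lowest in control roots. GLYMA_02G204500 was at 4.64% in Cd+OP, 0.696% in Cd and 1.97% in control roots. GMN16 was at 3.93% in Cd+OP, 0.852% in Cd and 2.09% in control roots. Both genes were thus lowest in Cd. GLYMA_05G121600 was at 5.35% in Cd+OP, 1.02% in Cd and 4.60% in control roots. GLYMA_06G216500 was at 4.75% in Cd+OP, 7.45% in Cd and 7.53% in control roots.

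Control+OP against control gave log2 fold changes of 3.73 to 8.37 with a median of 7.66, in a comparison where 34.6% of all genes tested were called higher. The value was 8.37 ± 0.241 for GLYMA_20G024200, 7.82 ± 0.255 for GLYMA_15G045000 and 5.57 ± 0.286 for GMN16. GLYMA_05G121600 with 4.44 ± 0.222 and GLYMA_06G216500 with 3.73 ± 0.166 had the smallest. These describe the contrast on which the genes were listed and carry no test. In control+OP the within-group coefficient of variation was 1.30 to 8.18%, over 1279 to 19536 counts per gene and library.

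Cd+OP against control+OP, which uses the same control+OP libraries, gave -6.22 to -4.29 with a median of -5.71, and every Cd+OP library lay below every control+OP library in all 10 genes. GLYMA_14G052400 had the lowest value, -6.22 ± 0.323, and GLYMA_05G121600 the highest, -4.29 ± 0.218. The difference between the OP change with Cd and the OP change without Cd was -7.37 to -2.19 on the log2 scale, with a median of -5.80. It was -7.37 ± 0.473 for GLYMA_20G024200 and -2.19 ± 0.461 for GLYMA_05G121600, again as a description.

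Cd against control showed no common direction. Log2 fold changes were positive in 5 genes and negative in 5, with a median of 0.10. GLYMA_20G024200 had the most positive value, 1.33 ± 0.414, with overlapping libraries. GLYMA_05G121600 at -2.10 ± 0.343 and GLYMA_02G204500 at -1.48 ± 0.374 had every Cd library below every control library, as did 39.1% of all genes tested. No gene had every Cd library above every control library, against 38.1% of all genes tested. In the other 8 genes the libraries of these groups overlapped. Both groups lay at 0 to 235 counts per gene and library.

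The remaining genes with a nodulation, oxygen carrier or leghaemoglobin term give the setting. Of 22 such genes 19 were tested, 9 of them oxygen carriers and leghaemoglobin-related genes and 10 others. In Cd+OP against Cd, 8 of the 19 were called higher and 5 lower, with a median log2 fold change of 0.33, where 71.0% of all genes tested were called in either direction. In control+OP against control, 11 were called higher and 6 lower, with a median of 2.65, beside 34.6% and 27.2% of all genes tested (61.8% in either direction). In Cd+OP against control+OP, 3 were called higher and 14 lower, with a median of -1.65, beside 33.6% and 33.1% (66.7%). In Cd against control 8 were called higher and 8 lower, beside 37.6% and 38.7% (76.2%); without control library 1 these counts were 4 and 10. The OP change with Cd minus that without it was called positive in 4 and negative in 12, beside 33.4% and 30.4% (63.9%). The list was drawn up with earlier results of these data known. Of the genes tested, GLYMA_06G065600, GLYMA_10G199000, GLYMA_10G199100 and GLYMA_19G074000 averaged under 1 FPKM in each group other than control+OP. They passed the filter only through control+OP, so their calls in comparisons that use control+OP give no separate support. The counts above include them.

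Several of these genes resembled the 10 nodulins and others did not. The leghaemoglobin gene LGB1 (GLYMA_10G198800), whose product carries oxygen in nodules, averaged 2.78 ± 0.322 FPKM in Cd+OP, 121 ± 5.46 in control+OP, 0.999 ± 0.494 in Cd and 1.40 ± 0.365 in control roots. The oxygen carrier gene GLYMA_11G121800 differed. It averaged 331 ± 11.4 FPKM in Cd+OP, 92.1 ± 7.77 in control+OP, 218 ± 6.14 in Cd and 647 ± 32.5 in control roots. GLYMA_17G073400 has the same electron transfer and peribacteroid membrane terms as GLYMA_02G204500, and averaged 2.32 ± 0.403 FPKM in Cd+OP, 34.2 ± 1.27 in control+OP, 4.88 ± 0.530 in Cd and 1.57 ± 0.477 in control roots. It fell by 1.14 ± 0.150 on the log2 scale in Cd+OP against Cd (edgeR adjusted p = 2.64e-07), where GLYMA_02G204500 was higher. GLYMA_18G018900, annotated as a sulfate transporter of the plasma membrane, averaged 2.38 ± 0.233 FPKM in Cd+OP, 33.4 ± 1.41 in control+OP, 0.178 ± 0.201 in Cd and 0.728 ± 0.0683 in control roots. Its log2 fold change in Cd+OP against Cd was 3.67 ± 0.267 (edgeR adjusted p = 6.23e-12). The sources used here do not say how reads of near-identical gene copies were divided in the counting.

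GLYMA_01G028500 and GLYMA_02G036800, both with nodulation as their single term, kept a higher level with OP in the presence of Cd. GLYMA_01G028500 averaged 17.5 ± 0.937 FPKM in Cd+OP, 58.2 ± 2.54 in control+OP, 2.20 ± 0.732 in Cd and 9.33 ± 0.645 in control roots. Its log2 fold change was 2.91 ± 0.115 in Cd+OP against Cd and 2.65 ± 0.0968 in control+OP against control, and the difference of 0.27 ± 0.151 did not pass the test (edgeR adjusted p = 0.124). For GLYMA_02G036800 the values were 2.95 ± 0.154 and 2.64 ± 0.127, with a difference of 0.31 ± 0.203 (edgeR adjusted p = 0.189). For the nodulin genes described above, the same difference was between -7.37 and -2.19.

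**Figure D4:**
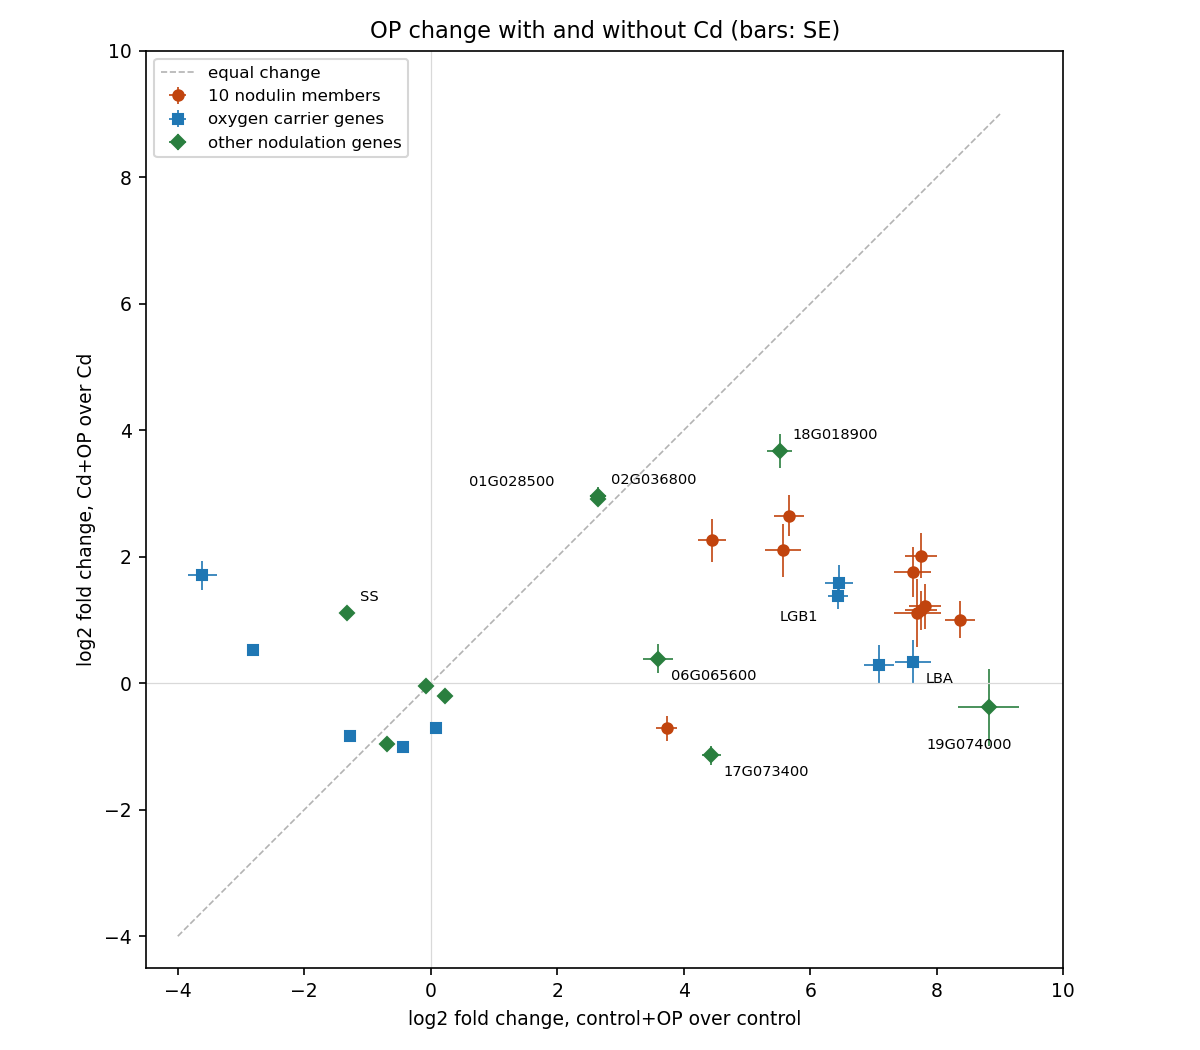
Log2 fold change with OP in the presence of Cd (Cd+OP over Cd, vertical axis) against that in its absence (control+OP over control, horizontal axis), with SE bars, for the 10 nodulin genes, oxygen carrier genes and other nodulation genes. The points labelled as oxygen carrier genes include GLYMA_07G232900, which is annotated with leghaemoglobin reductase activity instead. The nodulin genes lie between 3.73 and 8.37 on the horizontal axis and between -0.71 and 2.65 on the vertical axis, below the dashed line of equal change, near which GLYMA_01G028500 and GLYMA_02G036800 lie.

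Over the 12 libraries each of the 10 nodulin genes was correlated with the mean of all 10. On a standardised log2(FPKM + 1) scale the Pearson r was 0.961 to 0.998. Every such r rests mainly on the gap between 3 control+OP libraries and 9 others. That mean includes the gene itself, and the genes were listed for this gap, so a high r was built in. The 10 other genes most like that mean had r of 0.9964 to 0.9994. They were GLYMA_15G260700 (aspartic endopeptidase), LGB1, GLYMA_08G012800, GLYMA_20G191200 (oxygen carrier), GLYMA_02G132700, GLYMA_12G135000 (an annotation of thiamine synthesis), GLYMA_14G035100 (glycosyltransferase), GLYMA_11G224200 (peptide transporter), GLYMA_16G137300 (ADP binding) and GLYMA_05G051500 (serine endopeptidase). GLYMA_15G260700, the most alike, averaged 0.801 ± 0.0764 FPKM in Cd+OP, 46.5 ± 0.495 in control+OP, 0.200 ± 0.255 in Cd and 0.250 ± 0.188 in control roots. Of all genes tested 88, or 0.29%, had an r of at least 0.99, among them 8 of the 10 nodulin genes, for which it was built in.

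The chromosomal surroundings were looked at after the values had been seen. Of the 100 genes that are the 5 nearest tested genes on each side of the 10 nodulin genes, 7 were called and at least 4-fold higher in control+OP than in control roots, against 416 of 30340 genes tested (1.37%). They lay beside 4 of the 10 genes. GMN16 had 3 of them, GLYMA_02G265100, GLYMA_02G265300 and GLYMA_02G265500, all within the nearest pair of tested genes on either side. GLYMA_02G265500 had 0.468, 0.506 and 0.580 FPKM in Cd+OP, 34.4, 35.7 and 35.0 in control+OP, 0.443, 0.156 and 0.756 in Cd, and 0, 0.241 and 0.281 in control libraries. GLYMA_14G052300, directly next to GLYMA_14G052400, had 4.49, 3.60 and 5.84 FPKM in Cd+OP, 49.8, 47.4 and 52.0 in control+OP, 0.562, 0 and 0.864 in Cd, and 2.12, 2.21 and 2.03 in control libraries. Both stood apart in control+OP, and GLYMA_14G052300 was also apart in Cd+OP from Cd. GLYMA_05G121700, next to the iron and manganese transporter gene GLYMA_05G121600, averaged 0.164 ± 0.0353 FPKM in Cd+OP, 14.0 ± 1.17 in control+OP, 0.0426 ± 0.0737 in Cd and 0.0538 ± 0.0932 in control roots. Of the 7 neighbours 4 were called higher in Cd+OP against Cd, as were 36.4% of all genes tested. The table names no function for most of them, and several passed the filter on low values only through control+OP.

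**Figure D5:**
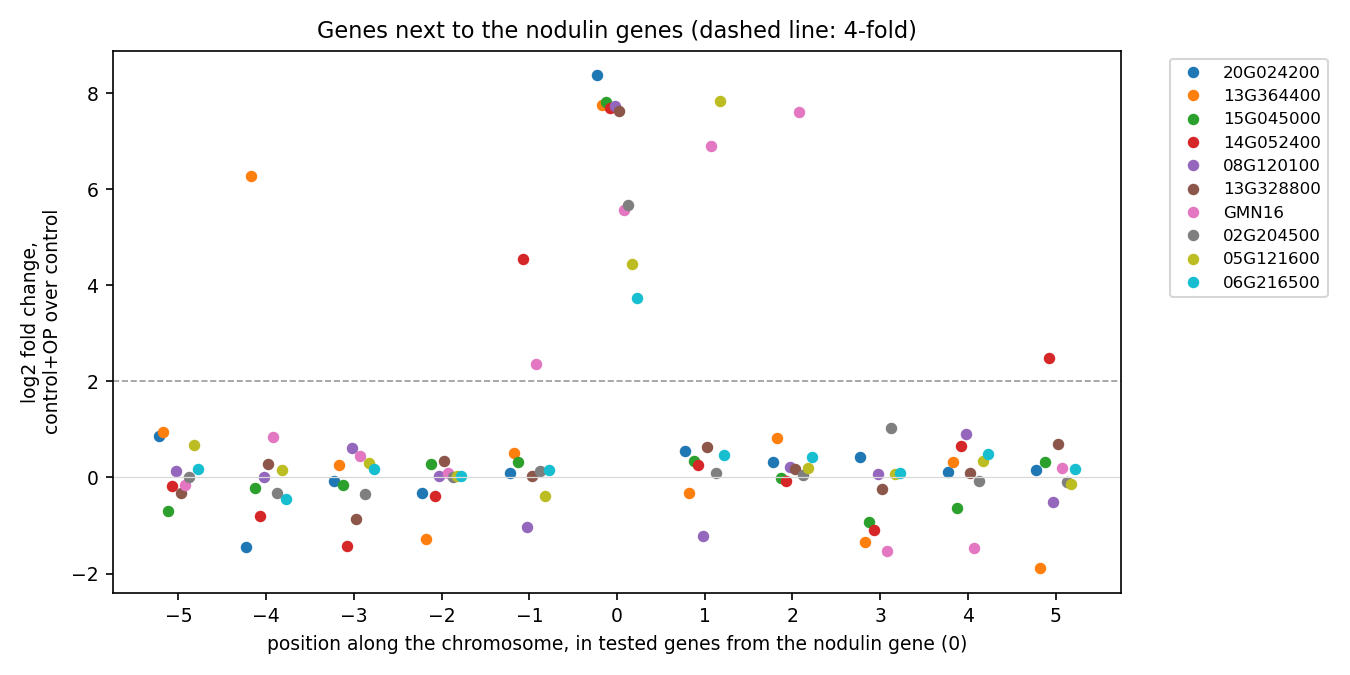
Log2 fold change in control+OP over control for the 10 nodulin genes (position 0) and the 5 nearest tested genes on each side, coloured by nodulin gene, with a dashed line at 4-fold. Of the 100 neighbours 7 lie above the line, 3 of them next to GMN16, and the median of the neighbours is 0.10.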

How the data were processed

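Root RNA was isolated with TRIzol and sequenced by Illumina NovaSeq, per the labels' protocols, and the authors gave 1 table of 49128 genes. The deposited table holds FPKM values and expected counts for 12 libraries, per the file headers. No aligner, counter, genome build, annotation release or strand setting is named: these steps are not given in the sources used. The deposited expected counts are whole but no plain tally of reads: 10000 values are exactly 4, against 5019 at 3 and 3231 at 5.

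Counts were analysed with edgeR 4.0.16 in R 4.3.3 (quasi-likelihood test, two-sided, TMM scaling, 1 mean per group over all 12 libraries). A filter of at least 1 FPKM on the mean left 30340 genes, over which p-values were adjusted (Benjamini-Hochberg, threshold 0.05). The SE was taken as the absolute log2 fold change over the root of F. DESeq2 1.42.0 and limma 3.58.1 on log2(FPKM + 1) or log2(FPKM + 0.1) were alternatives, and the edgeR script was tested on simulated data. P-values measure only the spread between these libraries, which may be technical. On counts divided by 4, pairs of libraries within a group had a median chi-square over genes of 0.542 to 0.611, beside 0.455 for sampling alone. The mean chi-square over genes was 1.25 to 1.96. In Cd libraries the nodulin genes had coefficients of variation of 8.45 to 113%.

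The 10 nodulin genes and all lists were chosen with earlier results of these data known. The 10 genes were therefore tested only in Cd+OP against Cd, which compares no control+OP or control library. Even so, all 12 libraries set the filter, the scaling and the spread, and 2 of the 10 passed the filter only through control+OP. Named besides them are the other nodulation genes with a symbol or, per comparison, among the 5 largest called changes of those that are not oxygen carriers, and the 10 genes most correlated with the mean of the nodulin genes. Genes beyond this rule were named after their values were seen. No identifier matched the reference table of gene names (0 matches), and no promoter or protein sequence was used here.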

Additional observations from a re-analysis of the deposited data

Results flagged for a closer look

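The OP change with Cd differed from the OP change without Cd in the edgeR interaction test for 16 of the 19 other nodulation genes tested, where 63.9% of all genes were called. The 8 of them that the rule for named genes takes are given here. Values are the first change minus the second, log2 ± SE. For LGB1 (GLYMA_10G198800) the difference was -5.05 ± 0.314 (edgeR adjusted p = 4.04e-13), and for LBA (GLYMA_10G199100), also a leghaemoglobin gene, it was -7.29 ± 0.531 (edgeR adjusted p = 9.13e-12). LBA averaged 0.617 ± 0.0790 FPKM in Cd+OP, 33.3 ± 0.363 in control+OP, 0.465 ± 0.226 in Cd and 0.164 ± 0.142 in control roots. LBA passed the filter only through control+OP, so its call gives no separate support. For GLYMA_17G073400 the difference was -5.57 ± 0.212 (edgeR adjusted p = 1.7e-17), with a lower level in Cd+OP than in Cd and a higher one in control+OP than in control. For the sulfate transporter gene GLYMA_18G018900 it was -1.85 ± 0.411 (edgeR adjusted p = 0.000374), with a higher level with OP in both settings.

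GLYMA_06G065600, annotated to plasma membrane rafts, gave -3.21 ± 0.328 (edgeR adjusted p = 5.01e-09) and averaged 0.716 ± 0.170 FPKM in Cd+OP, 3.36 ± 0.261 in control+OP, 0.517 ± 0.0768 in Cd and 0.276 ± 0.122 in control roots. GLYMA_19G074000, with nodulation as its single term, gave -9.20 ± 0.940 (edgeR adjusted p = 5.09e-09), but 2 of its 3 control libraries were at 0, so the size of this difference rests on a near-empty group. It averaged 0.106 ± 0.0995 FPKM in Cd+OP, 9.97 ± 0.844 in control+OP, 0.126 ± 0.0406 in Cd and 0.0200 ± 0.0347 in control roots. GLYMA_06G065600 and GLYMA_19G074000 passed the filter only through control+OP, so their calls give no separate support.

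The sucrose synthase gene SS (GLYMA_13G114000) was the only one of these 8 with a positive difference, at 2.42 ± 0.0429 (edgeR adjusted p = 4.58e-24). It averaged 163 ± 1.45 FPKM in Cd+OP, 189 ± 4.41 in control+OP, 72.3 ± 1.76 in Cd and 472 ± 18.1 in control roots, so that it was higher with OP in the presence of Cd and lower with OP in its absence. The galactolipid synthase gene DGD2 (GLYMA_18G228900) had the smallest difference of these 8, at -0.414 ± 0.135 (edgeR adjusted p = 0.00978), with 4.49 ± 0.210 FPKM in Cd+OP, 4.89 ± 0.233 in control+OP, 4.89 ± 0.610 in Cd and 4.21 ± 0.140 in control roots. Outside these 8, the oxygen carrier genes GLYMA_11G121700 and GLYMA_11G121800 also had positive differences. They were 5.32 ± 0.326 and 3.33 ± 0.0625 (edgeR adjusted p = 2.98e-13 and 1.31e-23). Among all other nodulation genes called, 4 were positive and 12 negative.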

How the results depend on the processing

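Replacing edgeR by DESeq2 moved the number of nodulin genes called higher in Cd+OP against Cd to 4, against 8, while leaving out each library in turn gave 8 to 9. Of the values for single nodulin genes, 190 kept their direction and their side of the threshold, 5 lost the call, 5 gained it and 0 changed sign; those that changed are given in the report. The standard errors of DESeq2 were 0.427 to 1.40 for the 9 genes with a positive change and larger than those of edgeR, and the cause was not tested. A filter of at least 5 FPKM lowered the genes called, since fewer were tested: to 12874, against 21553, for Cd+OP against Cd; to 11494, against 18761, for control+OP against control; to 13201, against 23132, for Cd against control; to 12241, against 20229, for Cd+OP against control+OP; and to 11822, against 19381, for the interaction. It also lowered the other nodulation genes called higher in Cd against control to 5, against 8; leaving out libraries gave 4 to 9 for that count, with 4 without control replicate 1. The remaining counts stayed within 1.5 times.

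With the replicate number as a block, 8 nodulin genes were called higher in Cd+OP against Cd and 21445 genes were called in all, and no call of a nodulin gene changed. The numbers were not taken to pair the libraries, since the labels do not say that they do. Same-numbered libraries correlated at -0.0135 to 0.0793 in their deviations from group means, and other-numbered ones at -0.0983 to 0.0523. Of the 12 libraries, 10 correlated best with their own number, and what lies behind this was not tested. Outside control+OP the nodulin genes had 0 to 332 deposited counts per library, which limits their fold changes. Since these counts are no plain tally of reads, the number of fragments behind them is not known and may be smaller.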
